A study of Mus musculus with 3 samples.

Results

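The nuclei described here were the endothelial candidates of a single-nucleus ATAC-seq study of mouse dorsal skin. They were chosen by an accessibility rule. A nucleus was kept when 3 or more of its open features overlapped the gene body or the 2000 bp at either end of 14 endothelial genes, and when the share of its open features there was at least 2 times that of all nuclei pooled, 0.0440%. The 14 genes were Pecam1, Cdh5, Tie1, Tek, Kdr, Flt1, Flt4, Cldn5, Emcn, Egfl7, Erg, She, Eng and Esam, and their windows held 197 features. The rule kept 643 of 12348 nuclei, or 5.21%. They were 182 of 6553 nuclei after UVB, 257 of 3753 in anagen and 204 of 2042 in telogen, and are called rule nuclei below. Because counts at the 14 genes chose them, the levels of those genes are a description and support nothing.

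All mice carried Dct-rtTA and Tre-H2B-GFP, which put a GFP-tagged histone under a doxycycline-dependent driver with the promoter of the melanocyte gene Dct, and all drank doxycycline (20 mg in 100 ml of water) for 5 days. GFP-positive nuclei were sorted from the dorsal skin, whose adipose layer had been removed. The UVB group was a pool of 24 mice given 3 exposures of 2.2 mJ/cm2 within a week. The anagen group was 8 mice brought into the hair growth phase by shaving and Nair, with doxycycline after its onset, and the telogen group was 12 mice in the resting phase. The age was 7 weeks in the treatment text and 8 weeks in the sample characteristics. Anagen and telogen nuclei were pooled in 1 library, and the 2 technical replicates of UVB were held in 1 matrix with no map from nuclei to replicates. Each condition was therefore 1 sample: nothing below has a replicate check or a test, intervals cover counting error only, and UVB cannot be told apart from its library. How endothelial nuclei passed a sort for the Dct label was not tested.

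Endothelium lines blood and lymphatic vessels. Its cells read growth factors through the VEGF receptors (Flt1, Kdr and Flt4) and through Tie1 and the angiopoietin receptor Tek, and ETS, GATA, SOX and bHLH transcription factors hold their identity. Lymphatic endothelium, which drains fluid and immune cells from the skin, is set apart by the homeobox factor Prox1 and by Flt4, the receptor for VEGF-C. ATAC-seq counts where a transposase reaches the DNA, so the values below are counts in open features in and around a gene and are not RNA levels. They are given as CPM, the counts of a gene or feature scaled to a common total for each group of nuclei.

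The stretches of 250 bases before the starts of 7 endothelial genes are printed first. They were picked among starts whose features stood out in rule nuclei and are not the highest by rank. Tie1, Egfl7 and Erg were genes of the rule, and Hhex, Myct1, Prox1 and Tbx1 were not. The sequences are those of RefSeq on GRCm38.p6, read along the gene. Capitals mark 2 motifs on either strand, AGGAAG, the core that ETS factors read, and GATAAG, that of the factors Gata2 belongs to.
Tie1 (chr4:118489850-118490099, minus strand): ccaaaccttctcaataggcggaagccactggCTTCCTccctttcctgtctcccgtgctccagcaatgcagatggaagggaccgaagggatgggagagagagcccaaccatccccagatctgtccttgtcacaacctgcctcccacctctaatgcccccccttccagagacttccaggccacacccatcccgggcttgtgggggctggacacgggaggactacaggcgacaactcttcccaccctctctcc
Egfl7 (chr2:26583615-26583864, plus strand): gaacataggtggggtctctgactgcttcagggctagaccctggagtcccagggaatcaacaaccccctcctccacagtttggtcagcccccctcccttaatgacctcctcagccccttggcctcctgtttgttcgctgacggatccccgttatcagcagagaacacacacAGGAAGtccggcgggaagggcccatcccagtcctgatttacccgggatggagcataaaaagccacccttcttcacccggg
Erg (chr16:95459349-95459598, minus strand): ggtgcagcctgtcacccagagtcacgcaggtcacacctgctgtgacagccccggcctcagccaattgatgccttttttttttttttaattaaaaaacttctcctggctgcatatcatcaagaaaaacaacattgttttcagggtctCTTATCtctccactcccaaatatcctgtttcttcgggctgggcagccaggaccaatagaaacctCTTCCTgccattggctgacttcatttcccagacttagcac
Hhex (chr19:37434591-37434840, plus strand): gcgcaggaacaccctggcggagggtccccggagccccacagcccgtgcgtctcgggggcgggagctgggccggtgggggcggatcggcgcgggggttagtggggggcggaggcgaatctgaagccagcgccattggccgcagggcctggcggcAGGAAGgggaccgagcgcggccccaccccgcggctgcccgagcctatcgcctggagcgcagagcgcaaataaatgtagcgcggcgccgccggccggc
Myct1 (chr10:5593478-5593727, plus strand): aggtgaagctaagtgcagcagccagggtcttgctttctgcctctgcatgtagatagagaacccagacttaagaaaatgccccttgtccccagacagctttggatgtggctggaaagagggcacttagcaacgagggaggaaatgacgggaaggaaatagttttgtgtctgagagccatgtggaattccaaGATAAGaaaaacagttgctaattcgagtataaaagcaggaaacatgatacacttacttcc
Prox1 (chr1:190170828-190171077, minus strand): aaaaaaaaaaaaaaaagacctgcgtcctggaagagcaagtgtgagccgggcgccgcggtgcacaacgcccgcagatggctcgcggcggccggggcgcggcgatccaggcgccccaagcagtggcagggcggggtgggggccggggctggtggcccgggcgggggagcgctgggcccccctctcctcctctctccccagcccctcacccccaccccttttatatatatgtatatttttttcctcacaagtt
Tbx1 (chr16:18588900-18589149, minus strand): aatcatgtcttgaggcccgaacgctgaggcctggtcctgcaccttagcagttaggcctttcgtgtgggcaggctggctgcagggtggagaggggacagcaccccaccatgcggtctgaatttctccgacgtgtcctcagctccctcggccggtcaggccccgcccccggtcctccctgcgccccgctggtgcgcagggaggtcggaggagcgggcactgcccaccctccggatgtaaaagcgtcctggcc

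The Tie1, Egfl7, Erg and Hhex stretches held AGGAAG, the Erg and Myct1 stretches held GATAAG, and the Prox1 and Tbx1 stretches held neither. The SOX-type core ACAAAG was searched as well and lay in none of the 7. The stretches of Cldn5, She, Kdr and Flt4, rule genes not printed, held none of the 3 motifs. The lowest ratio of their features in rule over other nuclei across conditions was 14.1, 7.65, 6.69 and 6.40, against 6.18 at Tie1. The She and Flt4 features rested on only 8 and 4 counts in UVB. Over 32851 such stretches of all genes, AGGAAG lay in 29.5%, GATAAG in 6.55% and ACAAAG in 16.5%. Over 48 stretches of 37 genes of the endothelial lists, they lay in 18 (37.5%), 3 (6.25%) and 9 (18.75%). A match is a run of letters and not a measured binding site.

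The feature at the printed Tie1 start held 67.2, 93.8 and 70.6 CPM in UVB, anagen and telogen rule nuclei, against 1.61, 5.16 and 11.4 CPM in the other nuclei. At the start of Hhex, a homeobox factor of early endothelium, the feature held 44.3, 51.2 and 64.8 CPM in UVB, anagen and telogen rule nuclei, against 6.33, 10.9 and 17.8 CPM in the other nuclei. At the start of Myct1, which encodes an endothelial membrane protein, it held 14.3, 14.2 and 10.3 CPM in UVB, anagen and telogen rule nuclei, against 0.646, 1.24 and 2.20 CPM in the other nuclei. Rule nuclei stood above the other nuclei at these 3 starts in each condition, at Tie1 by the choice of the nuclei.

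The label was then set beside a clustering of all nuclei. The clustering did not set aside the features of the 14 genes or of the genes below. Its clusters were named by markers that included the 14, so what follows is a description and not a separate check. Of 11 clusters 1 led on the endothelial markers, with 14 of 14 at 2-fold or more over the rest. It is called the endothelial-like cluster. Its 10 leading genes included She, Tie1, Cldn5, Flt4, the Notch regulator Dtx1 and the atypical chemokine receptor Gpr182. It held 1903 nuclei, with a median of 1161 counts each. Of the 643 rule nuclei, 445 lay in it (69.2%). The shares by condition were 46.2% (38.8 to 53.7%), 75.1% (69.3 to 80.3%) and 82.4% (76.4 to 87.3%) in UVB, anagen and telogen, with exact Clopper-Pearson 95% intervals. After UVB more rule nuclei lay outside the cluster (98) than in it (84), so the label endothelial did not hold for all of them. This rested on 1 of the tag numbers in the UVB barcode names, number 19, whose meaning the labels do not give: it held 85 of the 182 rule nuclei, 20 of them in the cluster, and without it 64 of 97 lay inside (65.98%, 55.7 to 75.3%).

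The rule nuclei outside the cluster were deeper, with median counts of 4713, 3526 and 5217 in UVB, anagen and telogen, against 1846.5, 1840 and 2209.5 in the rule nuclei inside. No doublet caller was run, and the part of depth and of doublets in meeting the rule was not tested. Values below are for all rule nuclei unless the cluster is named, and gene lists are given for both. The rule took 23.4% of the cluster. The cluster nuclei it left out stand among the other nuclei below, where they made up 5.38, 19.1 and 24.4% in UVB, anagen and telogen.

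The threshold mattered for who was kept. Of the 293 rule nuclei with exactly 3 open marker features, 62.5% lay in the cluster, and of the 350 with 4 or more, 74.9% did. Just outside, 628 nuclei had 2 open marker features and a share past the threshold, and 49.4% of them lay in the cluster. Another 73 had 3 or more features and a share of 1.5 to under 2 times the pooled one, with a median of 7646 counts, and 4.11% of them lay in the cluster.

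Rule nuclei took a smaller share of the sort after UVB than in anagen or telogen. The shares were 2.78% (2.39 to 3.20%), 6.85% (6.06 to 7.70%) and 9.99% (8.72 to 11.4%) in UVB, anagen and telogen, and these intervals did not overlap. The whole cluster gave the same order, with 6.52% (5.93 to 7.14%), 22.9% (21.6 to 24.3%) and 30.2% (28.2 to 32.3%). Depth differed beside it: the median was 2995.5, 2174 and 2625.5 counts in UVB, anagen and telogen rule nuclei, against 1700, 1520.5 and 1576 in the other nuclei. With each nucleus thinned to 1000 counts and shallower nuclei left out (1291 in UVB, 1014 in anagen and 440 in telogen), the shares were 1.22% (0.938 to 1.55%), 4.71% (3.95 to 5.57%) and 5.81% (4.71 to 7.06%), and the anagen and telogen intervals overlapped. The part of the sort gate in these shares was not tested.

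The barcode names carry tag numbers that the labels do not explain, and the share varied between them. Over tag numbers with at least 50 nuclei it lay between 0.971% and 5.19% after UVB (15 tag numbers, median 2.88%), between 3.71% and 9.87% in anagen (7, median 6.72%) and between 2.93% and 19.8% in telogen (10, median 9.05%). Every UVB tag number with at least 50 nuclei lay below the median of anagen and of telogen, and the ranges of the 3 conditions overlapped. Smaller UVB tag numbers reached up to 20% (number 5, with 2 of 10 nuclei).

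**Figure D1:**
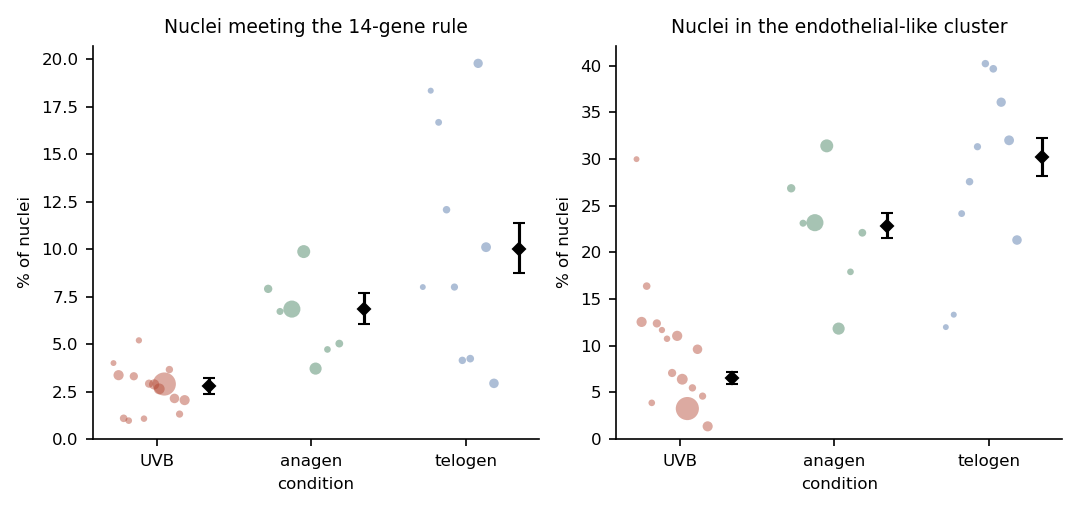
Percent of the nuclei of each condition that met the 14-gene rule (left) and that lay in the endothelial-like cluster (right). Small points are tag numbers with at least 50 nuclei, sized by their nuclei, and diamonds with bars are whole conditions with exact 95% intervals. The shares were 2.78, 6.85 and 9.99% in UVB, anagen and telogen on the left and 6.52, 22.9 and 30.2% on the right.

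Over the series, median counts per nucleus were 1726 in UVB, 1577 in anagen and 1650 in telogen. UVB shared 217 barcodes with anagen and 289 with telogen, and none of these was held by rule nuclei in both conditions. Barcodes shared between a rule nucleus and another nucleus were not counted apart. Markers of other skin cells were open in rule nuclei. The 9 melanocyte markers summed to 962, 725 and 440.1 CPM in UVB, anagen and telogen rule nuclei and to 509, 368 and 380.0 CPM in those inside the cluster, against 1809, 2315 and 682 CPM in the other nuclei. The 8 fibroblast markers summed to 479, 429 and 202 CPM, inside the cluster to 200.1, 146 and 105 CPM, against 473, 546 and 404 CPM. The 9 keratinocyte markers summed to 380.3, 124 and 325 CPM, inside the cluster to 186, 83.8 and 147 CPM, against 434, 215 and 639 CPM. Inside the cluster Lum was at 0 in each condition, Mlana in UVB and anagen, and Sox10, Tyrp1 and Krt14 in UVB.

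The 14 markers of the rule summed to 1955, 2887 and 2640.4 CPM in UVB, anagen and telogen rule nuclei, against 245, 319.8 and 404 CPM in the other nuclei. Tie1 had 95.8, 141 and 118 CPM in UVB, anagen and telogen rule nuclei, against 3.81, 8.87 and 14.1 CPM in the other nuclei. She, which encodes an adaptor protein of endothelium (chr3:89831370-89858846), had 92.9, 299.8 and 305 CPM against 5.55, 12.6 and 23.3 CPM. Flt4 (chr11:49609679-49652739) had 230.2, 477 and 453 CPM against 15.8, 27.2 and 39.4 CPM, spread over 20 features. Emcn, a sialomucin gene of veins and capillaries, had only 29, 12 and 13 counts in UVB, anagen and telogen rule nuclei. Flt1, the VEGF receptor gene of blood vessels, had 48.6, 108 and 52.99 CPM against 16.6, 18.2 and 16.9 CPM. The rule fixed the direction of these gaps.

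**Figure D2:**
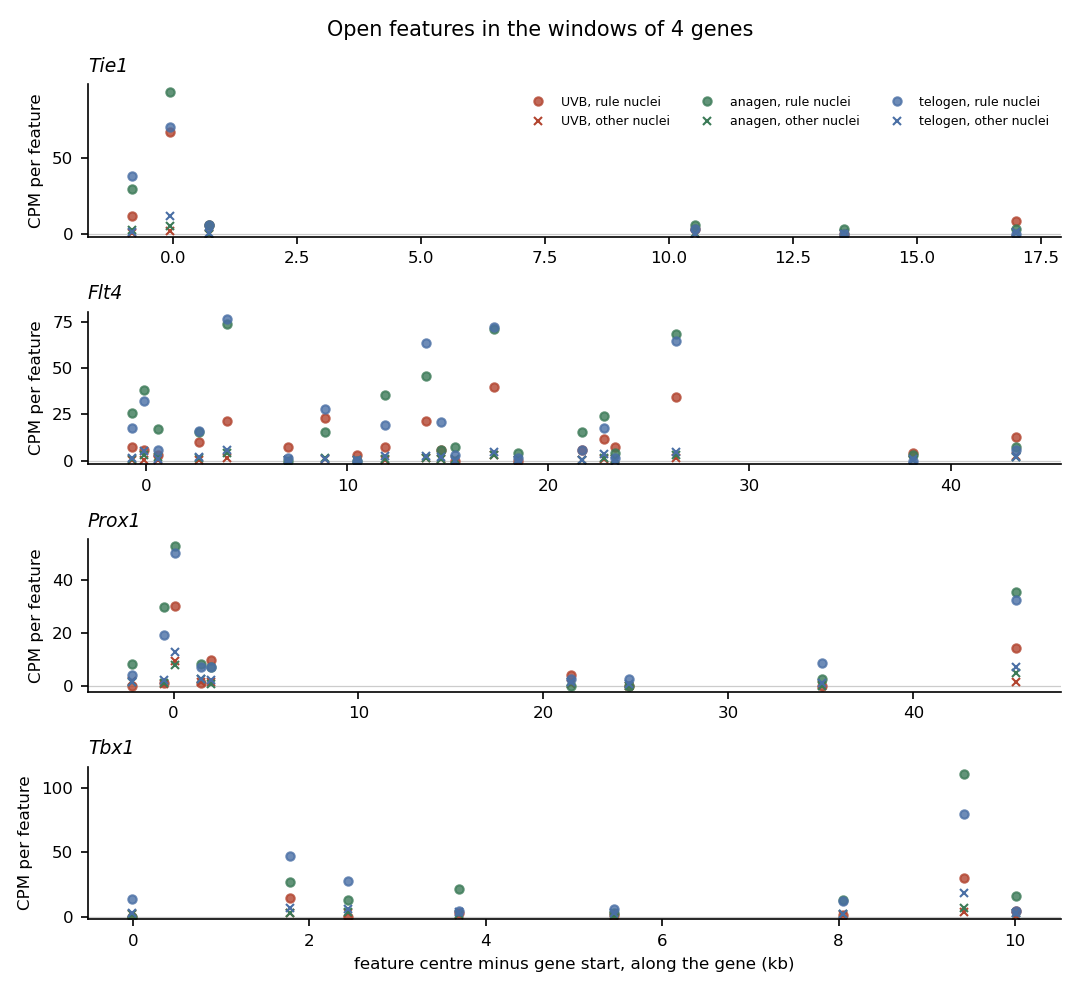
CPM per feature against the distance of the feature's centre from the gene start, for Tie1, Flt4, Prox1 and Tbx1. Circles are rule nuclei and crosses other nuclei, coloured by condition. At Tie1 the feature centred 64 bp before the start held 65.4% of the rule nuclei's counts, and at Tbx1 the feature centred 9426 bp into the gene held 48.9%.

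Lymphatic genes that the rule had not used were open in rule nuclei. Prox1 (chr1:190118035-190170827) had 61.5, 145 and 135 CPM in UVB, anagen and telogen rule nuclei, against 19.1, 21.4 and 32.8 CPM in the other nuclei. The ratios were 3.23 (2.29 to 4.45), 6.79 (5.30 to 8.64) and 4.13 (3.15 to 5.39), with exact 95% counting intervals in brackets here and below. Most counts came in pairs, so these intervals are too narrow. Inside the cluster Prox1 had 168, 214 and 186 CPM, so UVB lay nearer to the other conditions there. A Prox1 feature was open in 13 of 84 UVB nuclei inside the cluster, 42 of 193 in anagen and 38 of 168 in telogen. The fullest one, centred 67 bp after the start printed above, held 38.8% of the gene's counts.

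Lyve1, the hyaluronan receptor gene of lymphatic vessels, rested on 8, 22 and 8 counts in UVB, anagen and telogen rule nuclei, with ratios over the other nuclei of 5.90 (2.34 to 13.2), 17.8 (9.04 to 35.8) and 2.55 (0.976 to 5.99). Mmrn1, which encodes a secreted glycoprotein of lymphatic endothelium, rested on 13, 24 and 14 counts, with ratios of 15.99 (7.203 to 34.5), 6.75 (3.96 to 11.2) and 3.12 (1.53 to 6.07). Reln, the reelin gene, had ratios of 2.20 (1.62 to 2.93), 2.75 (2.08 to 3.59) and 2.88 (2.16 to 3.80). All 4 genes stood above the other nuclei in each condition, and the Lyve1 interval in telogen held 1.

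Tbx1, a T-box factor of lymphatic development (chr16:18580979-18590671), had 54.3, 203 and 194 CPM in UVB, anagen and telogen rule nuclei, against 15.4, 22.4 and 43.99 CPM in the other nuclei. The ratios were 3.53 (2.44 to 4.99), 9.08 (7.30 to 11.3) and 4.42 (3.52 to 5.53). Its fullest feature, chr16:18580996-18581495, lay near the far end of the gene. Foxc2, a forkhead factor of lymphatic valves, had 12.9, 46.9 and 72.1 CPM against 9.17, 11.1 and 19.4 CPM, with ratios of 1.40 (0.629 to 2.74), 4.21 (2.76 to 6.27) and 3.73 (2.57 to 5.34). Nts, the neurotensin gene, had 6, 14 and 6 counts in UVB, anagen and telogen rule nuclei and ratios of 5.31 (1.78 to 13.3), 6.43 (3.15 to 12.5) and 3.09 (0.963 to 8.71). Of these 3, Tbx1 was the one with an interval above 1 in each condition that rested on more than 30 counts throughout.

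Pdpn, Nrp2 and Maf, other genes of lymphatic endothelium, lay within 2-fold of the other nuclei, though each interval in anagen lay above 1. Pdpn, the podoplanin gene, which other skin cells also use, had ratios of 0.957, 1.27 and 1.19 in UVB, anagen and telogen. Nrp2, a VEGF-C co-receptor gene, had 0.968, 1.48 and 1.13, and Maf, a bZIP factor, had 0.748, 1.62 and 1.29. Ccl21a had no feature in its window. Of the 9 lymphatic genes other than Prox1, Lyve1, Mmrn1 and Reln, those with at least 30 counts that stood at 2-fold or more were 2 of 8, 4 of 8 and 3 of 7 in UVB, anagen and telogen. Inside the cluster 3, 4 and 3 of the same genes did. Over all genes outside the 14 markers the shares at 2-fold or more were 5.73%, 6.19% and 4.33%, and inside the cluster 12.4%, 9.34% and 6.6%. The list's median log2 ratio was 0.45, 0.97 and 0.36, beside -0.0024, -0.08 and -0.07 over all those genes.

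**Figure D3:**
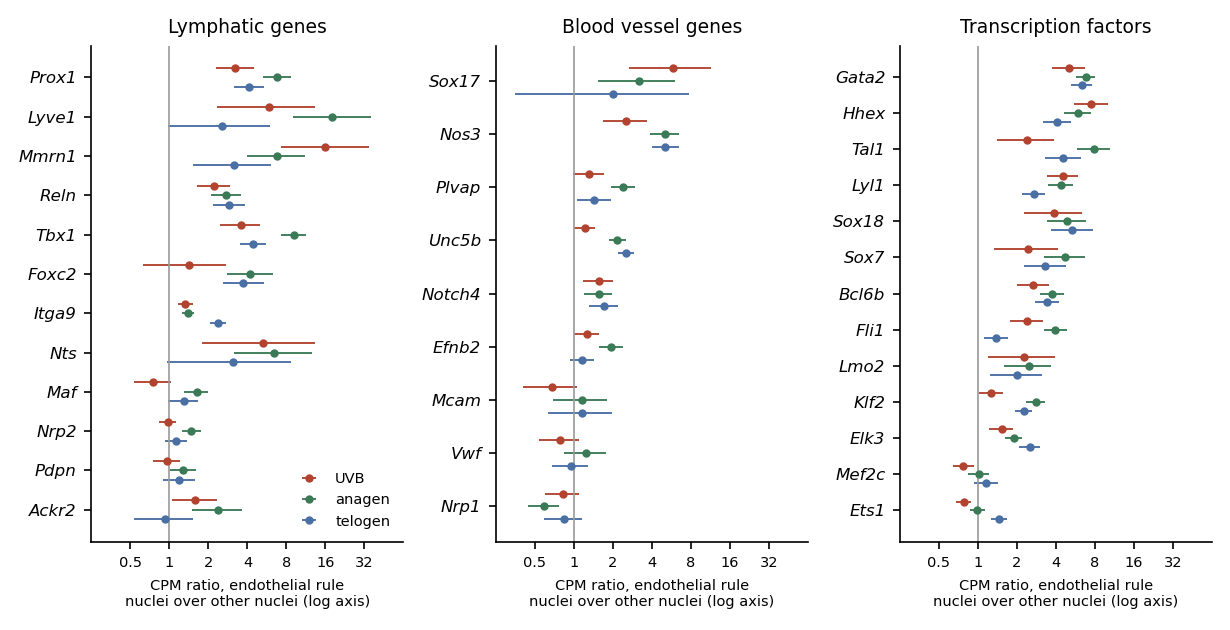
CPM in rule nuclei over CPM in the other nuclei of the same condition (log axis), with exact 95% counting intervals, for lymphatic genes, blood vessel genes and endothelial transcription factors in UVB, anagen and telogen. Prox1, Tbx1, Gata2 and Hhex lay right of 1 in each condition, with Gata2 at 5.05, 6.79 and 6.30.

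Genes of blood vessels were mixed. Nos3, the endothelial nitric oxide synthase gene, had 44.3, 125.04 and 183 CPM in UVB, anagen and telogen rule nuclei, against 17.4, 24.9 and 35.9 CPM in the other nuclei, with ratios of 2.54 (1.69 to 3.69), 5.03 (3.89 to 6.45) and 5.09 (4.00 to 6.47). S1pr1, the sphingosine-1-phosphate receptor gene, had ratios of 2.32 (1.42 to 3.61), 7.78 (6.12 to 9.85) and 5.00 (3.76 to 6.64). Vwf, the von Willebrand factor gene, had ratios of 0.782 (0.538 to 1.10), 1.24 (0.848 to 1.77) and 0.947 (0.677 to 1.30). Nrp1, a VEGF co-receptor gene, had 67.2, 82.4 and 61.8 CPM against 81.6, 140.4 and 73.7 CPM, with ratios of 0.823 (0.602 to 1.10), 0.587 (0.443 to 0.764) and 0.839 (0.594 to 1.16). Cd34, which other skin cells also use, had ratios of 1.40 (0.951 to 1.99), 0.673 (0.372 to 1.13) and 0.798 (0.412 to 1.42). Nos3 and S1pr1 thus stood above the other nuclei in each condition, and for Vwf each interval held 1. S1pr1 and Cd34 were not on the blood vessel list counted below. In the sub-clusters described below, Nos3 was highest in sub-cluster 2 (254 CPM) and S1pr1 in sub-cluster 1 (244 CPM). Sub-cluster 3, the highest on blood endothelial markers, had 130 CPM at Nos3 and 155 CPM at S1pr1.

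By list, 3 of 10, 4 of 10 and 2 of 8 blood vessel genes stood at 2-fold or more in UVB, anagen and telogen, with median log2 ratios of 0.36, 0.80 and 0.37. Inside the cluster 6, 6 and 2 of them did, with medians of 1.13, 1.32 and 0.43. Of the arterial list 3 of 14, 4 of 14 and 5 of 12 did, and 4, 9 and 5 inside the cluster. Dll4, the Notch ligand of arteries and sprouting tips, had ratios of 5.95 (4.41 to 7.92), 4.99 (3.97 to 6.24) and 5.25 (4.23 to 6.50). Of the venous list 2 of 6, 2 of 6 and 2 of 5 did, and 4, 3 and 2 inside the cluster. Ephb4, a receptor of venous and lymphatic endothelium, had 1.66, 4.14 and 2.66, and Nr2f2, the nuclear receptor of venous fate, had 1.86, 3.26 and 2.03. Of the capillary list 3 of 8, 3 of 8 and 3 of 6 did, and 4, 3 and 3 inside the cluster. Of the sprouting list 1 of 14, 2 of 13 and 6 of 13 did, and 2, 2 and 6 inside the cluster. Cell cycle genes had 1 of 17, 0 of 17 and 0 of 17 and median log2 ratios of -0.10, -0.41 and -0.30, and inside the cluster 1, 1 and 0 with -0.36, -0.42 and -0.44. Over all genes outside the 14 markers the shares at 2-fold or more were 5.73%, 6.19% and 4.33%. Inside the cluster they were 12.4%, 9.34% and 6.6%. The sprouting list in UVB lay near these shares, and the cell cycle list near or below them.

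Of the general endothelial genes that the rule had not used, 9 of 18, 13 of 18 and 8 of 17 stood at 2-fold or more in UVB, anagen and telogen. Their median log2 ratios were 0.81, 1.44 and 0.90, and for the nuclei inside the cluster 1.79, 1.80 and 1.28, with 10, 14 and 10 genes at 2-fold or more. Without UVB tag number 19 the UVB median over rule nuclei was 1.52. All genes outside the 14 markers had 5.73%, 6.19% and 4.33% at 2-fold or more, and 12.4%, 9.34% and 6.6% inside the cluster. Myct1 had 22.9, 52.6 and 54.5 CPM in UVB, anagen and telogen rule nuclei, against 3.68, 8.15 and 14.3 CPM in the other nuclei. Ramp2, a partner of the adrenomedullin receptor, had ratios of 2.19 (1.31 to 3.48), 2.78 (1.97 to 3.84) and 5.00 (3.51 to 7.09). Icam2, an adhesion molecule of resting endothelium, had ratios of 4.66 (1.88 to 10.1), 5.60 (2.70 to 10.96) and 4.28 (2.42 to 7.41). Robo4, a guidance receptor gene of vessels, had only 4, 8 and 2 counts.

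Of the endothelial transcription factors, 11 of 16, 12 of 16 and 9 of 15 stood at 2-fold or more in UVB, anagen and telogen. Their median log2 ratios were 1.27, 1.94 and 1.33, and inside the cluster 2.33, 2.18 and 1.72, with 13, 14 and 10 factors at 2-fold or more. All genes outside the 14 markers had 5.73%, 6.19% and 4.33% at 2-fold or more, and 12.4%, 9.34% and 6.6% inside the cluster. Gata2, a GATA factor of endothelium and lymphatic valves (chr6:88193891-88207032), had 85.8, 297 and 306 CPM in UVB, anagen and telogen rule nuclei, against 16.99, 43.7 and 48.6 CPM in the other nuclei. The ratios were 5.05 (3.75 to 6.71), 6.79 (5.73 to 8.03) and 6.30 (5.19 to 7.65), and inside the cluster 14.5, 10.1 and 8.41. Hhex had 85.8, 145 and 162 CPM against 11.5, 24.6 and 39.6 CPM, with ratios of 7.46 (5.47 to 10.1), 5.90 (4.63 to 7.48) and 4.09 (3.20 to 5.21).

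Tal1, a bHLH factor of blood and endothelium, had ratios of 2.40 (1.41 to 3.87), 7.84 (5.81 to 10.5) and 4.53 (3.27 to 6.24). Its relative Lyl1 had 4.51, 4.36 and 2.68 in UVB, anagen and telogen. Sox18, a SOX factor of vessel and lymphatic formation, had 3.89, 4.86 and 5.33, and its relative Sox7 had 2.42, 4.67 and 3.31. Fli1, an ETS factor, had 2.39, 3.96 and 1.38. Ets1, an ETS factor that immune cells also use, had ratios of 0.778 (0.679 to 0.889), 0.990 (0.864 to 1.13) and 1.46 (1.27 to 1.67) and was below the other nuclei in UVB.

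Among the 20 genes outside the markers with the highest ratios, each taken at its lowest interval end over the 3 conditions, were Dtx1, Shank3, Dll4, Gata2, Lbp, Nova2, Hhex, Sh3gl3, Spns2, Vps18, Emid1, Smad1, Ptprr, Palm, Ripor1, Dmtn, Lyl1, Clic5 and Tgm2. Dtx1, a regulator of Notch signalling, had 122, 365 and 399 CPM against 16.5, 33.01 and 67.96 CPM in UVB, anagen and telogen rule and other nuclei, with ratios of 7.38, 11.1 and 5.87, and inside the cluster 20.7, 16.97 and 7.72. Spns2, which encodes a sphingosine-1-phosphate exporter of endothelium, had 134, 384 and 269 CPM against 34.7, 51.8 and 81.2 CPM, with ratios of 3.87, 7.41 and 3.32. Smad1, a transducer of BMP signals, had 217, 303 and 429.8 CPM against 78.9, 94.7 and 119 CPM, with ratios of 2.75, 3.20 and 3.60. Vps18 (chr2:119288742-119298453) and Dll4 (chr2:119325784-119335666) lay near each other, but their windows did not overlap and shared no feature. For each of these genes the ratio inside the cluster was higher than over all rule nuclei in each condition. This is a description, because the genes were picked by their ratios and the clustering did not set their features aside.

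Single features outside the marker windows were ranked in the same way. The feature chr10:38984785-38985284 in Lama4, which encodes a laminin chain of vessel basement membranes, held 28.6, 56.8 and 72.1 CPM in UVB, anagen and telogen rule nuclei, against 2.58, 5.57 and 7.48 CPM in the other nuclei, with ratios of 11.1, 10.2 and 9.64. The feature chr1:190181588-190182087, 10761 bp from Prox1, held 32.9, 78.2 and 76.5 CPM in UVB, anagen and telogen rule nuclei, against 2.78, 6.602 and 8.14 CPM in the other nuclei, with ratios of 11.8, 11.8 and 9.40. The feature chr6:88203113-88203612 in Gata2 had ratios of 9.89, 9.55 and 7.21, and the feature chr8:79381702-79382201 in Smad1 had 11.6, 7.29 and 11.6. The other 6 lay in Prkag2 and Cuedc1 and nearest to Ppp2ca, Nucks1, Susd1 and Fam76b.

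Lymphatic nuclei were sought among the rule nuclei by a second rule: 2 or more open features in the windows of Prox1, Lyve1, Mmrn1 or Reln, and a share there at least 2 times that of all rule nuclei pooled. It kept 13 of 182 nuclei in UVB (7.14%, 3.86 to 11.9%), 22 of 257 in anagen (8.56%, 5.44 to 12.7%) and 14 of 204 in telogen (6.86%, 3.80 to 11.2%). These intervals overlapped. Of the 49, 46 lay in the endothelial-like cluster. At least 1 feature of the 4 genes was open in 20.9, 31.1 and 36.8% of UVB, anagen and telogen rule nuclei, against 6.62, 8.30 and 9.47% of the other nuclei, which were shallower. The 4 windows held 48 features, so the share counts nuclei past this rule and not lymphatic cells.

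Over the 3 conditions together, the 49 nuclei were set against the remaining rule nuclei. The 49 were deeper, with medians of 3417, 4089 and 3078.5 counts in UVB, anagen and telogen, against 2981, 1984 and 2497.5 in the rest, and the part of depth in meeting the rule was not tested. Tbx1 had 328 and 131 CPM (ratio 2.51, 1.89 to 3.295) in the 49 and in the rest, and Gata2 had 487 and 201 CPM (ratio 2.43, 1.93 to 3.03). Efnb2, the ephrin gene of arteries and lymphatic valves, had 304 and 121 CPM (ratio 2.52, 1.88 to 3.35). Tbx1, Gata2 and Efnb2 were thus higher in the lymphatic-rule nuclei. Flt1 had 28.9 and 74.7 CPM (ratio 0.387, 0.140 to 0.865), given as a description because its counts had helped to choose the rule nuclei. Of all genes outside the 4 selecting ones 7.24% stood at 2-fold or more higher. Of 7 other lymphatic genes 1 did, with a median log2 ratio of 0.18, and of 8 blood vessel genes 1 did, with 0.32, beside -0.02 over all genes. The blood vessel median was 1.12, 0.09 and -0.43 in UVB, anagen and telogen. Of 14 transcription factors 5 did, with a median of 0.85.

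Inside the cluster the gaps of Tbx1, Gata2 and Efnb2 were smaller. There Tbx1 had 349.8 and 233 CPM (ratio 1.50, 1.13 to 1.98), Gata2 519.6 and 365 CPM (ratio 1.42, 1.13 to 1.78) and Efnb2 293 and 159.9 CPM (ratio 1.83, 1.33 to 2.50). Sox17, an arterial SOX factor, had 0 and 22 counts, and Selp, the P-selectin gene of veins, had 0 and 22, where a count of 0 allows up to 3. Of 6 other lymphatic genes and 8 blood vessel genes none stood at 2-fold or more higher there, beside 5.21% of all genes, with median log2 ratios of 0.20 and -0.06. None of 14 transcription factors did, with 0.17.

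Clustering the rule nuclei alone gave 6 sub-clusters. They are described without a test, because the same genes formed them. Sub-cluster 1, with 205 nuclei, was led by Ubxn10 and Pla2g2c, neighbours with the same counts in rule nuclei, and by Adgrg3 and Oxgr1. It was highest on the lymphatic markers, with a median log2 fold of 1.84 over the other rule nuclei and 5 of 6 measured markers at 2-fold or more. Flt4 had 971 and 202 CPM in it and in the other rule nuclei, Prox1 216 and 81.5, Lyve1 50.04 and 8.21 and Mmrn1 62.1 and 12.6. Reln, the measured marker short of 2-fold, had 134 and 79.0 CPM in sub-cluster 1 and in the other rule nuclei. Flt1 had 26.02 and 84.02 CPM in sub-cluster 1 and in the others. Sub-cluster 1 held 24.7%, 38.1% and 30.4% of UVB, anagen and telogen rule nuclei.

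Sub-cluster 2, with 155 nuclei, was led by Sbspon, Fibin and AI467606, with Wnt7a, a Wnt ligand gene, among its top 10. Prox1 had 241 and 77.3 CPM in it and in the other rule nuclei, Reln 189 and 64.3 and Foxc2 85.96 and 31.5. Lyve1 was level, at 17.2 and 18.6 CPM, and Pdpn (47.3 and 119) and Nrp2 (140 and 241) were lower. Of 6 measured lymphatic markers 2 stood at 2-fold or more, with a median log2 fold of 0.20. Of 7 measured blood endothelial markers 0 did, with a median of -0.35. Nos3 had 254 and 77.3 CPM, and Unc5b, a netrin receptor gene of arteries and sprouts, 582 and 205. Flt4 was level, at 383 and 388 CPM. Prox1 was thus high in both sub-clusters 1 and 2. Lymphatic-rule nuclei were 23 of 205 in sub-cluster 1 (11.2%), 22 of 155 in sub-cluster 2 (14.2%) and 1 of 81 in sub-cluster 3. Sub-cluster 2 held 10.99%, 21.8% and 38.7% of UVB, anagen and telogen rule nuclei.

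Sub-cluster 3, with 81 nuclei, was highest on the blood endothelial markers, with a median log2 fold of 1.37, and low on the lymphatic ones, at -1.90. It was led by Npr1, a natriuretic peptide receptor gene. Flt1 had 219 and 54.2 CPM in it and in the other rule nuclei, Sox17 84.8 and 4.78 and Plvap, the gene of capillary diaphragms, 234 and 91.4. Prox1 had 19.9 and 124 CPM, Flt4 159.6 and 411, and Lyve1 was at 0 in it. Vwf had 89.8 and 50.5 CPM and Nrp1 159.6 and 61.1. Efnb2, also among the blood endothelial markers, was lower, at 74.8 and 146 CPM. Of 7 measured blood endothelial markers 4 stood at 2-fold or more. Sub-cluster 3 held 9.89%, 14.8% and 12.3% of UVB, anagen and telogen rule nuclei.

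Sub-clusters 1, 2 and 3 held 205, 155 and 77 nuclei of the endothelial-like cluster. Sub-clusters 4, 5 and 6, of 78, 72 and 52 nuclei, held 4, 1 and 3 of it and carried genes of other skin lineages. In sub-cluster 4 the melanin enzyme gene Dct had 547 and 41.4 CPM in it and in the other rule nuclei. In sub-cluster 5 the matrix gene Dcn had 142 and 7.54 CPM, and in sub-cluster 6 the epithelial factor Grhl2 had 163 and 11.4. Median log2 folds were 3.24 for melanocyte, 3.49 for fibroblast and 3.74 for keratinocyte markers in these 3. Their median depths were 3634.5, 4698.5 and 3908 counts, above the 2028, 2250 and 1840 of sub-clusters 1, 2 and 3. They held 24.2%, 9.73% and 4.41%, then 14.3%, 12.8% and 6.37%, then 15.9%, 2.72% and 7.84% of UVB, anagen and telogen rule nuclei.

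**Figure D4:**
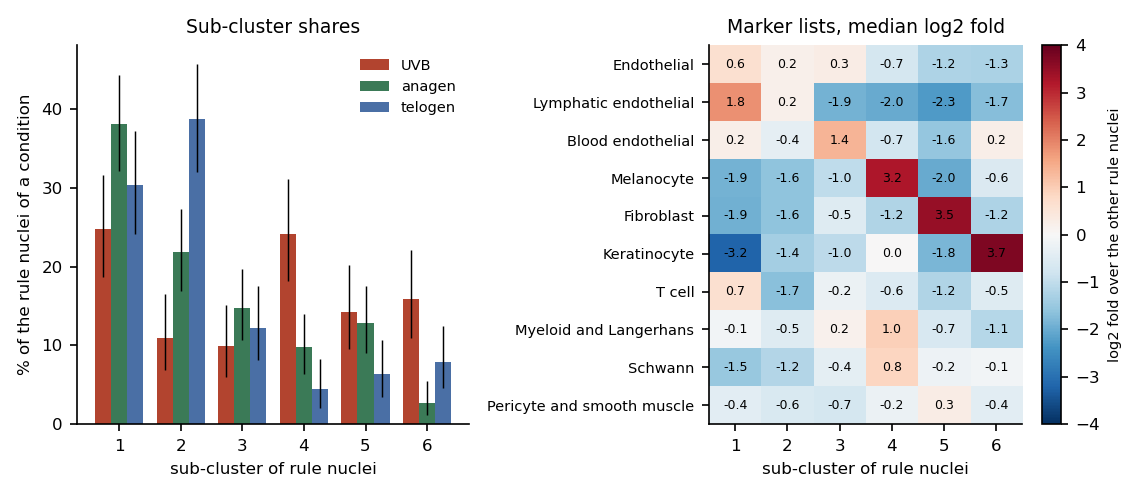
Left, percent of the rule nuclei of each condition in each sub-cluster, with exact 95% intervals. Right, median log2 fold of each marker list in a sub-cluster over the other rule nuclei: sub-cluster 1 was highest on lymphatic markers (1.84) and sub-cluster 3 on blood endothelial markers (1.37).

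Between conditions, the shares of sub-clusters 1, 2, 4 and 6 lay apart beyond their counting intervals in at least 1 pair of conditions. Genes are therefore given for all rule nuclei and also for those inside the cluster, the whole cluster or both. Sub-clusters 1 and 2 lay wholly in the cluster, so their mix differed there too. Sub-cluster 2, where Nos3, Foxc2 and Gata2 (393 and 182 CPM) were high, held 20 of 84 UVB and 79 of 168 telogen rule nuclei inside the cluster. The part of this mix in the ratios below was not tested. In UVB over telogen 7.96% of genes with at least 30 counts stood at 2-fold or more higher and 7.65% at 2-fold or more lower, and inside the cluster 5.23% and 10.4%. Without UVB tag number 19, 539 genes stood higher in UVB than in telogen rule nuclei, against 849 with it. In UVB over anagen these shares were 7.14% and 5.26%, and inside the cluster 6.29% and 9.15%. In anagen over telogen they were 3.71% and 5.38%, and inside the cluster 3.25% and 5.53%. The 3 comparisons share their samples.

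Endothelial transcription factors were lower in UVB than in telogen rule nuclei. Of 13 with enough counts, 7 stood at 2-fold or more lower and none higher, with a median log2 ratio of -1.04 beside -0.14 over all genes. Inside the cluster 2 of 13 were lower, with a median of -0.74, and over the whole cluster none of 14, with -0.21. Without UVB tag number 19 the median over rule nuclei was -0.79. Gata2 had 85.8 and 306 CPM (ratio 0.280, 0.207 to 0.375) in UVB and telogen rule nuclei, 246 and 409 CPM (ratio 0.601, 0.436 to 0.815) inside the cluster and 228 and 311 CPM (ratio 0.734, 0.599 to 0.894) over the whole cluster. Sox18 had 27.2 and 80.9 CPM (ratio 0.336, 0.188 to 0.574), 40.9 and 99.1 CPM (ratio 0.413, 0.178 to 0.851) inside the cluster and 83.9 and 85.5 CPM (ratio 0.982, 0.687 to 1.39) over all of it. Markers of other cells moved beside them: the melanocyte list had a median log2 ratio of 1.82 and the fibroblast list of 1.06 in UVB over telogen rule nuclei. Their part in the result was not tested.

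Nos3 had 44.3 and 183 CPM (ratio 0.243, 0.158 to 0.362) in UVB and telogen rule nuclei, 105 and 233 CPM (ratio 0.448, 0.273 to 0.706) inside the cluster and 101 and 174 CPM (ratio 0.583, 0.432 to 0.778) over all of it. Foxc2 rested on 9 and 49 counts (ratio 0.178, 0.0771 to 0.367), with 0.245 (0.0758 to 0.614) inside the cluster and 0.745 (0.476 to 1.14) over all of it. In UVB over anagen, Tbx1 had 54.3 and 203 CPM (ratio 0.267, 0.182 to 0.385) in UVB and anagen rule nuclei, 114 and 313 CPM (ratio 0.363, 0.227 to 0.558) inside the cluster and 165 and 224 CPM (ratio 0.734, 0.579 to 0.924) over all of it. S1pr1 had 31.5 and 161 CPM (ratio 0.196, 0.118 to 0.311) in UVB and anagen rule nuclei, 0.265 (0.137 to 0.475) inside the cluster and 0.667 (0.503 to 0.875) over all of it. Nos3, Tbx1, S1pr1 and Gata2 kept an interval below 1 in all 3 sets of nuclei, and Foxc2 did not. The sets share nuclei and are not separate checks. Over the whole cluster the intervals of Tbx1, S1pr1 and Gata2 came close to 1 and are too narrow, because most counts came in pairs. Without UVB tag number 19 the log2 ratios over telogen were -1.19 for Gata2 and -1.45 for Nos3, against -1.84 and -2.04 with it.

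Prox1 had 61.5 and 135 CPM (ratio 0.454, 0.309 to 0.659) in UVB and telogen rule nuclei, but 168 and 186 CPM (ratio 0.905, 0.60002 to 1.34) inside the cluster. Dll4 had 87.2 and 229.6 CPM (ratio 0.380, 0.278 to 0.514) and 209 and 289 CPM (ratio 0.724, 0.507 to 1.02) inside the cluster. For both, the interval inside the cluster held 1. Flt4, a gene of the rule, had 230.2 and 453 CPM and 473 and 576 CPM inside the cluster.

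Icam1, the adhesion molecule that inflamed endothelium uses to capture leukocytes, was higher in UVB than in anagen, with 129 and 68.2 CPM (ratio 1.89, 1.31 to 2.74) in UVB and anagen rule nuclei, 186 and 72.8 CPM (ratio 2.56, 1.58 to 4.18) inside the cluster and 158 and 94.3 CPM (ratio 1.68, 1.27 to 2.22) over all of it. Over telogen the UVB ratios were 1.25 (0.904 to 1.73), 1.96 (1.26 to 3.06) and 1.44 (1.09 to 1.89), and the first interval held 1. The inflammatory list had 6 genes with enough counts in UVB over telogen. Of these 2 stood at 2-fold or more higher, beside 7.96% of all genes, and their median log2 ratio was -0.10. The direction depended on the set of nuclei: the median was 0.27 inside the cluster, with none of 4 at 2-fold, and 0.44 over the whole cluster, with none of 7. Of 13 immediate early and flow genes none stood at 2-fold or more higher after UVB than in telogen and 1 lower, with a median log2 ratio of -0.49, and -0.21 inside the cluster.

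Plvap had 81.5 and 80.9 CPM (ratio 1.01, 0.683 to 1.49) in UVB and telogen rule nuclei, but 200.1 and 84.7 CPM (ratio 2.36, 1.51 to 3.71) inside the cluster and 188 and 99.3 CPM (ratio 1.90, 1.45 to 2.49) over all of it. In anagen over telogen it had 152 and 80.9 CPM (ratio 1.88, 1.34 to 2.65) in anagen and telogen rule nuclei, 2.16 (1.47 to 3.22) inside the cluster and 1.33 (1.03 to 1.71) over all of it. Plvap was thus higher in anagen than in telogen in all 3 sets of nuclei, which share nuclei and are not separate checks. The interval over the whole cluster came close to 1 and is too narrow, because most counts came in pairs.

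**Figure D5:**
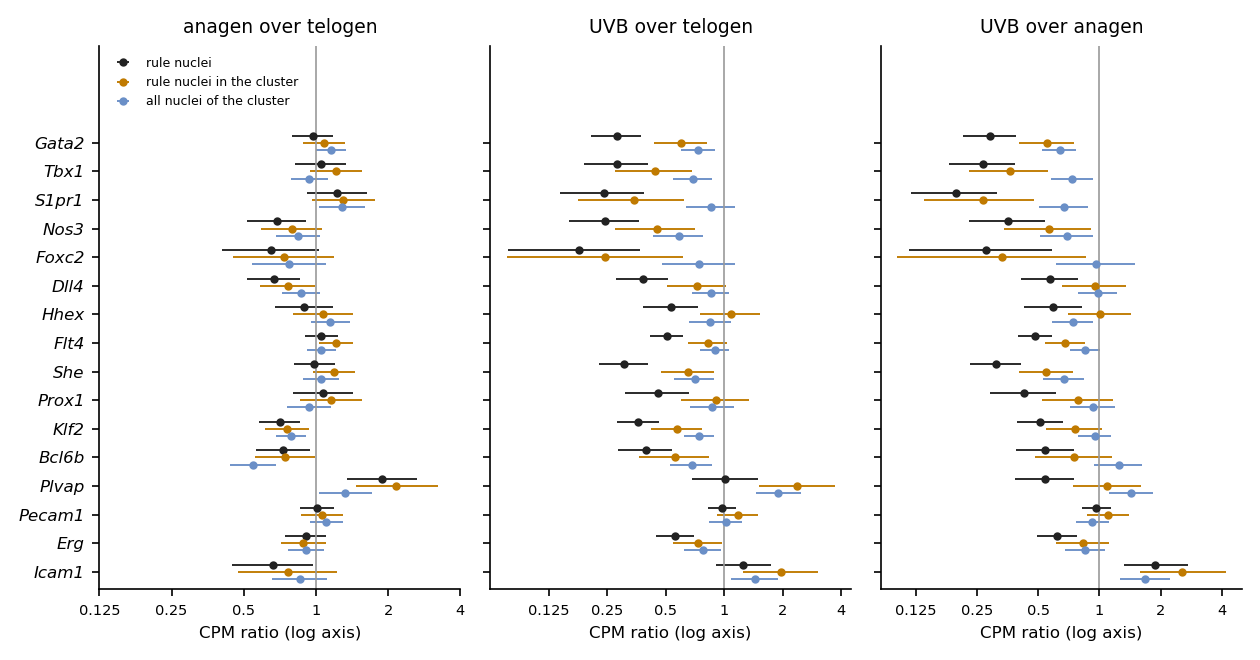
CPM ratio between 2 conditions (log axis) with exact 95% counting intervals for 16 endothelial genes, over rule nuclei, rule nuclei in the endothelial-like cluster and all nuclei of that cluster. Gata2 in UVB over telogen was 0.280, 0.601 and 0.734 in the 3 sets.

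Anagen and telogen rule nuclei, which shared a library, lay closer together. None of 13 transcription factors stood at 2-fold in either direction, with a median log2 ratio of -0.15, and 0.12 inside the cluster, beside -0.07 over all genes. Gata2, Tbx1 and Prox1 had ratios of 0.970 (0.797 to 1.18), 1.05 (0.820 to 1.34) and 1.07 (0.800 to 1.43). Flt1, a gene of the rule, had 108 and 52.99 CPM in anagen and telogen, and 123 and 57.8 CPM inside the cluster. Notch1, the receptor for Dll4, had 463 and 306 CPM (ratio 1.51, 1.27 to 1.81) and 1.18 (1.04 to 1.35) over the whole cluster. Dll4 had 153 and 229.6 CPM (ratio 0.668, 0.518 to 0.860) and 0.867 (0.724 to 1.04). Notch1 was thus higher and Dll4 lower in anagen rule nuclei. Over the whole cluster the Dll4 interval held 1, and the Notch1 interval, too narrow as all here, came close to 1.

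The 10 genes highest in anagen over telogen were Fstl4, Insc, Col14a1, Cda, Prrx2, Slc12a8, Mxra7, Adamts2, Pknox2 and Mtss2. Cda, the cytidine deaminase gene, rested on 44 and 6 counts in anagen and telogen rule nuclei (ratio 7.08, 3.01 to 20.3), with 9.88 (3.55 to 38.1) inside the cluster and 3.18 (1.79 to 5.94) over all of it. Adamts2 and Prrx2 were among the leading genes of sub-cluster 5. Among the 10 lowest were Trappc6a, Nab1, Galnt4, Pard6b, Lekr1, Ufsp2, 1700029J07Rik, Morf4l1 and Btk. Trappc6a, which encodes a subunit of a vesicle-tethering complex, rested on 7 and 43 counts (ratio 0.157, 0.0597 to 0.352), with 0.167 (0.0507 to 0.431) inside the cluster and 0.320 (0.176 to 0.556) over all of it. Ufsp2 and 1700029J07Rik shared features and had the same counts in rule nuclei.

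The 10 genes highest in UVB over telogen were Fstl4, Sorcs3, Megf10, Col14a1, Bcas1, Hmcn2, Ptprt, Tmem30c, Vgll2 and Mettl24. Fstl4, Megf10, Tmem30c and Vgll2 were among the leading genes of the melanocyte-marked sub-cluster 4. Fstl4 rested on 101 and 7 counts in UVB and telogen rule nuclei (ratio 14.02, 6.56 to 35.8), with 12.3 (4.70 to 40.9) inside the cluster, on 28 and 5 counts, and 3.93 (2.56 to 6.15) over all of it. Vgll2 had 60 and 8 counts, but 3 and 8 inside the cluster. The 10 lowest were Myh6, Myh7, Disc1, Grb7, Cfap57, Nos3, Foxc2, Gimap5, Gar1 and Gata2. Disc1 rested on 20 and 95 counts (ratio 0.205, 0.120 to 0.334), with 0.339 (0.178 to 0.598) inside the cluster and 0.489 (0.338 to 0.693) over all of it.

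In UVB over anagen the 10 lowest genes were Myh6, Myh7, Ubxn10, Pla2g2c, S1pr1, Oxgr1, Tbx1, Gata2, Slc24a1 and Cbx6. Ubxn10, Pla2g2c, Oxgr1 and Slc24a1 were among the leading genes of the lymphatic-marked sub-cluster 1. Ubxn10 rested on 6 and 71 counts in UVB and anagen rule nuclei (ratio 0.0850, 0.0302 to 0.194), with 0.185 (0.0655 to 0.424) inside the cluster and 0.530 (0.338 to 0.807) over all of it. The 10 highest were Ppp1r14c, Chdh, Bcas1, Col12a1, Crybg1, Smoc2, Cabcoco1, Kcnh1, Cacna2d2 and Ppp2r2c. Without UVB tag number 19 the log2 ratios of Smoc2, Kcnh1 and Cacna2d2 were 1.48, 0.51 and 0.80, with intervals that held 0. Crybg1 rested on 120 and 23 counts (ratio 5.25, 3.34 to 8.60), with 6.37 (3.15 to 13.9) inside the cluster and 2.17 (1.41 to 3.36) over all of it.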

How the data were processed

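Single-nucleus ATAC-seq counts per 500 bp feature and nucleus (315694 features, whole numbers up to 4, of which 61.1% of entries were 2) were used as deposited by the authors, 1 matrix per condition. Bowtie2, SAMtools, MACS2 and mm10 (GRCm38) are named per the submitters' processing notes, without versions. Filters on nuclei and any removal of doublets are not given in the sources. A barcode repeated within a condition was counted once, the deeper copy kept (62 second copies in UVB, 1721 in anagen and 543 in telogen). Totals were 16182770 counts in UVB, 10397896 in anagen and 5225945 in telogen.

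Genes were RefSeq protein-coding genes of GRCm38.p6 with 2000 bp at either end, and 18015 of 21883 had a feature. Intervals were 95%, exact conditional binomial for CPM ratios and Clopper-Pearson for shares, and cover counting error only. Genes needed 30 counts over both groups, and a group at 0 was set to 3 counts, or to a ratio of 1 where that put it higher. Cluster folds added 0.5 counts and left out markers with 3 or fewer counts on both sides. Nuclei were clustered by TF-IDF, 30 components (15 for sub-clusters) and Leiden at resolution 0.6 (0.5), without a doublet caller. Named genes were the list members, the 20 genes and 10 features highest over other nuclei, and the 10 highest and 10 lowest genes per comparison by the interval end nearest 1, of which 2 are not reported here. The members and lists were chosen with earlier results of these data known. Alternatives changed the rule, copies, depth, windows and count minimum. The ratios and their intervals were tested on simulated counts. The rule was run on simulated nuclei whose background held no marker features, which checks the code and not depth or doublets. Clustering used leidenalg 0.10.2 on igraph 0.11.9 and scikit-learn 1.9.0. Tables were handled in pandas 2.3.3 and numpy 2.4.6 under Python 3.11.15. Intervals came from scipy 1.17.1 and plots from matplotlib 3.10.9.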

Additional observations from a re-analysis of the deposited data

How the results depend on the processing

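The shares of rule nuclei depended on the definition. They were 0.275%, 1.17% and 2.01% in UVB, anagen and telogen with 6 or more features and 4 times the share, 1.22%, 4.71% and 5.81% with nuclei thinned to 1000 counts, and 1.28%, 5.14% and 8.23% for rule nuclei in the endothelial-like cluster. All nuclei of that cluster, an alternative chosen after seeing the data, gave 6.52%, 22.9% and 30.2%. Without nuclei above 3 times the median count the UVB share was 2.30%. The telogen share was 8.63% with all barcodes kept and 8.09% without telogen tag number 8, an alternative also chosen after seeing the data. UVB stayed lowest and telogen highest in each of these. Lymphatic-rule shares were 12.2% in telogen under the stricter rule, 3.88% in anagen and 1.08% in telogen after thinning, and 3.28% in UVB and 3.84% in anagen over the whole cluster. The median log2 ratio of endothelial genes outside the rule was 1.72 in UVB in the cluster (rule nuclei outside it counted among the other nuclei), and 1.95, 2.16 and 2.39 in UVB, anagen and telogen over the whole cluster.

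Genes at 2-fold or more numbered 941 for anagen against telogen, 1665 for UVB against telogen and 1318 for UVB against anagen. In that order they numbered 501, 552 and 551 under the stricter rule, 161, 174 and 242 after thinning, 330, 877 and 579 with features scored open or not, and 88, 392 and 246 among genes with at least 100 counts. They numbered 1086 in UVB over telogen with 1000 bp at the gene ends, and over the whole cluster 886 for UVB against telogen and 825 for UVB against anagen. Of log2 ratios whose interval lay off 0, 6 turned sign. In anagen over telogen Adamts2 had -0.0034 under the stricter rule and Prrx2 -0.31 over the whole cluster. In UVB over telogen Vgll2 had -0.28 inside the cluster and -0.59 over all of it. In UVB over anagen Kcnh1 had -0.23 over the whole cluster, and the list of Prox1, Lyve1, Mmrn1 and Reln had a median of 0.044 inside the cluster. Of the other list medians between conditions, whose intervals held 0, 43 turned sign over all alternatives. In UVB over telogen inside the cluster these were the blood vessel (-0.29 over rule nuclei), capillary (-0.19) and inflammatory (-0.10) lists, at 0.27, 0.59 and 0.27, and in anagen over telogen the transcription factors (-0.15), at 0.12. The cause was not tested, except that fewer nuclei or genes enter some of these counts by construction.

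No paired analysis was possible because each condition was 1 sample and no result comes from a test. Depth limits single genes: Lyve1, Mmrn1, Nts and Emcn rest on few counts, and most counts come in pairs, so the intervals are too narrow.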

Other observations

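A strip of 9 adjacent features over Myh6 and Myh7, cardiac myosin heavy chain genes (chr14:54965391-54970814), was open in 1 of 182, 93 of 257 and 40 of 204 rule nuclei in UVB, anagen and telogen, or 0.549%, 36.2% and 19.6%. In the other nuclei it was open in 0.549%, 33.1% and 15.9%. The conditions thus differed at this strip in all nuclei and not in rule nuclei alone.

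Some of the 7 T cell markers were open beside the endothelial ones. The 7 genes summed to 205, 176 and 159 CPM in UVB, anagen and telogen rule nuclei inside the cluster, against 65.9, 87.1 and 119.7 CPM in the other nuclei. Of the defining genes, Cd3g and Cd3d were at 0 inside the cluster in each condition, and Cd3e was at 0 there in anagen and telogen. In sub-cluster 1 Lck had 78.1 and 23.4 CPM in it and in the other rule nuclei, and Cd2 46.04 and 10.1. Cd247 was lower there, at 50.04 and 65.1 CPM. Notch, BMP and VEGF pathway genes stood at 2-fold or more in rule over other nuclei for 3 of 25, 7 of 25 and 3 of 25 in UVB, anagen and telogen, beside 5.73%, 6.19% and 4.33% of all genes outside the markers, and 5, 10 and 3 did inside the cluster, beside 12.4%, 9.34% and 6.6%. Their median log2 ratios were 0.12, 0.56 and 0.27 over rule nuclei and 0.29, 0.78 and 0.34 inside the cluster.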
